A study of Mus musculus with 4 samples.

Results

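The genes described here are 47 mouse genes of the interferon response and of antigen presentation by major histocompatibility complex (MHC) class I. They were listed by name, with earlier results of these data known, among them a lower median over a shorter interferon list. A gene was measured where the array has a probe set annotated to its symbol alone, and where it has several, the probe set with the highest mean log2 signal over the 4 arrays was taken. Of the 47 genes, 42 were measured, among 12393 genes with a symbol of their own. Isg15, Psme2 and H2-T23 have only probe sets annotated to several symbols, Ifi44 and Oas1g have none under their symbols, and no value is given for these 5.

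RNA was hybridised to 4 Affymetrix arrays. The bulge basal group, 2 arrays, held living back skin cells sorted as GFP α6high CD34high, where α6 is an integrin of basal cells and CD34 marks the basal layer of the hair follicle bulge, where hair follicle stem cells reside. The total epidermis group, 2 arrays, held all living GFP-expressing cells, which include bulge cells, so the comparison sets a subset against a mixture that contains it. All mice carried K14-GFP-actin, in which the keratin 14 promoter, active in basal keratinocytes, drives a fusion of GFP with actin, and all were at postnatal day 49, in the resting (telogen) phase of the hair cycle. The cell type label is the same for all 4 samples, so the groups were taken from their titles. The labels do not say whether replicates came from separate animals or how many animals each held, so the spread behind each p-value is that between arrays and may be technical.

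Interferons are cytokines that signal through paired receptors, Janus kinases and STAT proteins to switch on genes against viruses. Type I interferons act mainly on genes with an interferon-stimulated response element (ISRE), bound by a complex that includes STAT2 and IRF9, and interferon gamma on genes with a gamma-activated site (GAS). Class I molecules, a heavy chain with β2-microglobulin, show peptides from inside the cell to CD8 T cells. The peptides are cut by the proteasome, whose catalytic subunits are exchanged for interferon-inducible ones in the immunoproteasome, and are carried into the endoplasmic reticulum by the TAP transporter. Parts of the hair follicle have been described as sites of immune privilege, with low class I.

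All 10 measured class I presentation genes had a lower mean in bulge basal cells, and in 8 of them both bulge arrays lay below both total arrays. Their median difference was -0.93 on the log2 scale (bulge minus total, the direction of every difference given here). Over all 12393 genes the median was -0.02, and both bulge arrays lay below both total arrays in 20.5% of genes and above them in 18%. Of the 32 measured interferon genes outside class I presentation, 16 had a lower and 16 a higher mean, their median was -0.01, and both bulge arrays were below in 7 and above in 4. The lists also differ in brightness: 18 of the 32 and 0 of the 10 were not above the background level described below on both arrays of any group. The difference between the 2 lists was not tested.

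No member passed the test. In limma across all genes with Benjamini-Hochberg adjustment at 0.05, 0% of genes were called in either direction, with a smallest adjusted p of 0.0729. Of the members, 6 were lower and 0 higher at an unadjusted p under 0.05, against 5.29% and 5.18% of all genes. With a variance trend limma called 0.524% of genes lower and 0.557% higher, and 0 members. With genes below background left out beforehand it called 1.63% of 7249 genes lower and 1.43% higher, and 1 member, Psmb8, lower. The words lower and higher below describe the arrays and carry no call unless an adjusted p under 0.05 is printed.

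Detection flags do not come with the table, so the 95th percentile over 67 chemosensory receptor genes (olfactory, vomeronasal, taste) served as background, a log2 signal of 7.23. Of the 42 measured members, 24 were above it on both arrays of at least 1 group, among them all 10 class I presentation genes and 14 of the 32 others. Among these 24, both bulge arrays lay below in 14 and above in 2. For the class I presentation genes the counts were 8 and 0, and for the 14 others 6 and 2. Beside these stand 22.6% below and 20.7% above among the 6820 genes of the table that met the same condition. A gene can meet it through its brighter group alone, so these counts are given as a description. Where both arrays of 1 group fall under it, the fold is a bound, written as at least N-fold. The 18 members not above it in this way had differences from -1.43 to 0.55, and 15 of them had overlapping groups.

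Markers of leukocytes were lower on the same arrays. Limma at an adjusted p under 0.05 called 0 of them over all genes. With a variance trend it called 2 T cell and 4 Langerhans cell and myeloid markers lower (0.524% of all genes). With dim genes left out it called 5 and 5 lower (1.63% of the genes kept), a filter that a gene can pass through its brighter group alone. The summed signal of 13 measured T cell markers was 519 and 624 on the bulge arrays, against 2570 and 4615 on the total arrays, 10 of them had both bulge arrays below, and 12 were below background on both bulge arrays, the pan-leukocyte gene Ptprc among them at 41.4 and 30.7, against 411 and 452 on the total arrays. The summed signal of 18 Langerhans cell and myeloid markers was 2049 and 2610 on the bulge arrays, against 14038 and 15331 on the total arrays, 14 had both bulge arrays below, and 11 were below background on both bulge arrays. On both total arrays, 4 of the 13 T cell markers and 7 of these 18 were below background. Ctss had signals of 63.3 and 84.6 in bulge cells, against 1616 and 1393 in total epidermis. Both groups were sorted as cells expressing GFP under a keratinocyte promoter, and how far that gate removed leukocytes was not tested. Leukocytes express class I, immunoproteasome and interferon-induced genes, and the part of their RNA in the differences of the members was not tested. In bulk RNA, fewer cells of a type and less RNA per cell cannot be told apart.

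Keratinocyte and bulge markers check the labels of the sort. The summed signal of 7 basal keratinocyte markers was 98442 and 90737 on the bulge arrays, against 77530 and 98566 on the total arrays, with overlap. All 5 bulge markers were higher on both bulge arrays, with a median of 3.29, and Cd34, which chose the cells, had signals of 15697 and 14034 in bulge cells, against 844 and 1144 in total epidermis. Itga6, which encodes the α6 integrin of the same gate, went against it at the RNA level, with signals of 3312 and 1693 on the bulge arrays, against 5642 and 3491 on the total arrays, a difference of -0.91 without overlap and an adjusted p of 0.686. The 7 endothelial markers all overlapped, and 4 melanocyte markers had a median difference of -1.03 and 6 fibroblast markers -0.48. Of the 6 fibroblast markers, 5 were not above background on both arrays of any group, and 4 had a lower mean in bulge cells. Col1a2, the 1 above background, went the other way, with signals of 3852 and 1541 in bulge cells, against 343 and 286 in total epidermis.

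**Figure D1:**
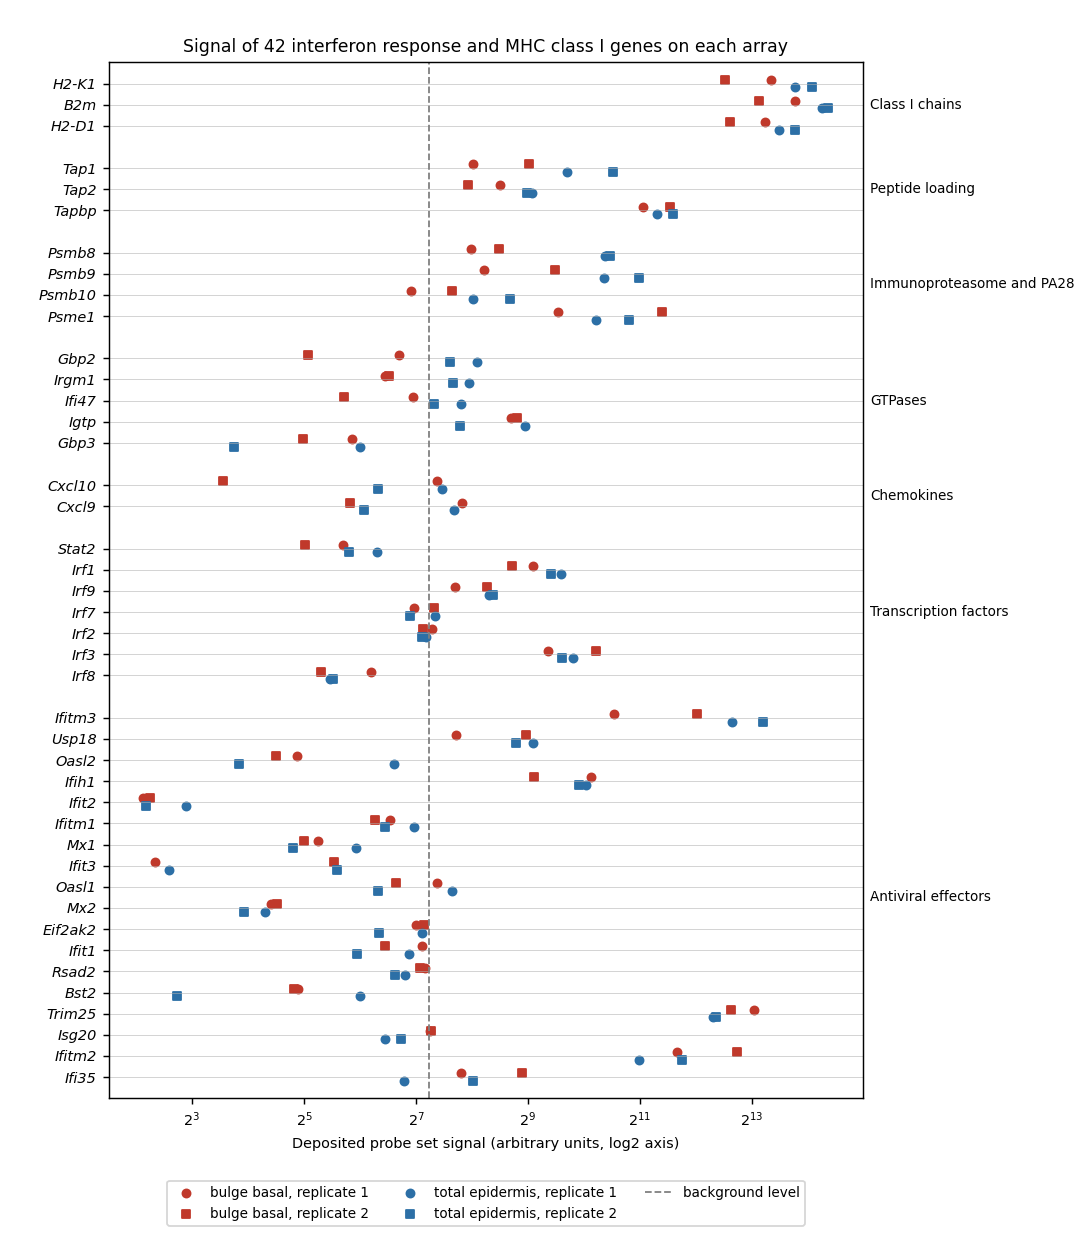
Deposited signal of the 42 measured members on a horizontal log2 axis, 1 point per array, with bulge basal points above total epidermis points for each gene and a dashed line at the background level. The bulge points of Psmb8, at 253 and 359, sit well left of its total epidermis points, at 1332 and 1404, while Tapbp, Psme1, Irf3 and Igtp have interleaved points.

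The chains of the class I molecule were lower on both bulge arrays. B2m, which encodes β2-microglobulin, had signals of 13920 and 8916 on the bulge arrays, against 19577 and 21080 on the total arrays. The groups did not overlap, the difference was -0.87 ± 0.42 (SE, n = 2 per group; 95% interval -1.92 to 0.19), and the adjusted p was 0.595. A second B2m probe set gave -0.47, also without overlap. H2-K1, a classical heavy chain gene, had signals of 10298 and 5832 in bulge cells, against 13978 and 17187 in total epidermis. Its difference was -1.0 ± 0.45 (SE, 95% interval -2.15 to 0.15), with an adjusted p of 0.566, and all 4 of its probe sets had groups that did not overlap, with differences from -1.75 to -0.89. H2-D1, the other classical heavy chain gene measured, had signals of 9599 and 6264 in bulge cells, against 11405 and 13939 in total epidermis, a difference of -0.70 ± 0.42 (SE, 95% interval -1.77 to 0.37) with an adjusted p of 0.714. The 4 of its 9 probe sets that were above background on all arrays gave -0.70, -0.95, -1.50 and -1.84, none with overlapping groups. Class I heavy chain genes are closely similar in sequence, so their probe sets may share signal, and the values of H2-K1 and H2-D1 are uncertain as measures of a single gene.

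The start of B2m is shown because it is the shared chain of all class I molecules and its window holds an ISRE match. The RefSeq window of 300 bases on GRCm38.p6 (250 before the start and 50 from it) lies at chr2:122147437-122147736 on the plus strand, with that match, 139 bases before the start, in capitals.
B2m: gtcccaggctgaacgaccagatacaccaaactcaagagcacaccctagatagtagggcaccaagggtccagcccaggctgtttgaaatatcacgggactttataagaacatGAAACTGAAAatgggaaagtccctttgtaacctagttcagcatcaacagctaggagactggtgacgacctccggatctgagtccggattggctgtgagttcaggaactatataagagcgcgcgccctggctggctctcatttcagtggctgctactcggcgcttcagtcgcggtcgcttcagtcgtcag

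In the peptide loading group, both transporter genes were lower in bulge cells and the tapasin gene was not separated. Tap1, a subunit of the peptide transporter, had signals of 259 and 519 on the bulge arrays, against 828 and 1472 on the total arrays, which did not overlap. Its difference was -1.59 ± 0.54 (SE, 95% interval -2.97 to -0.21), 3.01-fold lower, with an adjusted p of 0.383. Tap2, the other subunit, had signals of 361 and 242 in bulge cells, against 536 and 508 in total epidermis, without overlap. Its difference was -0.82 ± 0.41 (SE, 95% interval -1.85 to 0.21), with an adjusted p of 0.617. Tapbp encodes tapasin, which bridges the transporter to empty class I molecules. It had signals of 2126 and 2973 in bulge cells, against 2532 and 3068 in total epidermis, so the groups overlapped, with a difference of -0.15 (95% interval -1.17 to 0.87).

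The catalytic subunits of the immunoproteasome held the 2 largest differences of the class I group, Psmb8 and Psmb9. Psmb8, the inducible β5i subunit, had signals of 253 and 359 on the bulge arrays, against 1332 and 1404 on the total arrays. Both bulge values lay far below both total values, with a difference of -2.18 ± 0.40 (SE, 95% interval -3.19 to -1.17), 4.54-fold lower. Its adjusted p in limma was 0.125 over all genes, 0.0551 with a variance trend and 0.0369 with dim genes left out. That last call was lost without total epidermis replicate 1 (adjusted p = 0.108) or replicate 2 (adjusted p = 0.126), and held without bulge replicate 1 (0.0165) or replicate 2 (0.0054). Psmb9, the β1i subunit, had signals of 298 and 716 in bulge cells, against 1303 and 2031 in total epidermis, again without overlap. The difference was -1.82 ± 0.57 (SE, 95% interval -3.26 to -0.37), 3.52-fold lower, with an adjusted p of 0.333. It was -1.18 without bulge replicate 1 and -2.45 without bulge replicate 2. Psmb10, the β2i subunit, had signals of 120, below background, and 199 in bulge cells, against 258 and 411 in total epidermis. The groups did not overlap, and the difference was -1.08 ± 0.48 (SE, 95% interval -2.29 to 0.13), with an adjusted p of 0.554. Psme1, a subunit of the PA28 activator that binds the proteasome, had signals of 740 and 2703 in bulge cells, against 1182 and 1782 in total epidermis. The total arrays lay between the bulge arrays, and the interval of the difference, -1.83 to 1.76, was wide.

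Psmb9, Tap1, Psmb8 and Tap2 follow each other in that order on mouse chromosome 17, between H2-DMb1 and H2-Ob, in the MHC class II region. Tap1 and Psmb9 are divergent neighbours whose annotated starts are separated by 225 bases, so their windows share 275 identical bases, and neither motif matched in the shared stretch or the rest. The window of Psmb8 holds a GAS match 97 bases before its start, in capitals. The windows lie at chr17:34187306-34187605 for Tap1 and chr17:34197945-34198244 for Psmb8, both on the plus strand, and the capitals of the Tap1 window mark the bases between the starts of Psmb9 and Tap1. That of Psme1, at chr14:55578244-55578543 on the plus strand, is that of the brightest gene of the list with a match, an ISRE, in capitals, that begins at base 10 from its start.
Tap1: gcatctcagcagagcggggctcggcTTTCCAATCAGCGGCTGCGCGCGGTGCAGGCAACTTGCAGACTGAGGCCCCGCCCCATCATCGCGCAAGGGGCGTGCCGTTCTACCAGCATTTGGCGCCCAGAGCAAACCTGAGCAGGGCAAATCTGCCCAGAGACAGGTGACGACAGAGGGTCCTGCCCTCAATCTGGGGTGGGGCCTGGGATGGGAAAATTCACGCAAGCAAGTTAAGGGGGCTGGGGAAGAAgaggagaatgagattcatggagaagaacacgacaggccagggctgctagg
Psmb8: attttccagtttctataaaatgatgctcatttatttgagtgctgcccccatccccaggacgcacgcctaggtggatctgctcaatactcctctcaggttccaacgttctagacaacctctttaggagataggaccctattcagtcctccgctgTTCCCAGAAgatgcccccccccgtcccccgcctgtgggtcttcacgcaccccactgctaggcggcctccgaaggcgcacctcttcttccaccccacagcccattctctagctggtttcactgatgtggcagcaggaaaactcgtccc
Psme1: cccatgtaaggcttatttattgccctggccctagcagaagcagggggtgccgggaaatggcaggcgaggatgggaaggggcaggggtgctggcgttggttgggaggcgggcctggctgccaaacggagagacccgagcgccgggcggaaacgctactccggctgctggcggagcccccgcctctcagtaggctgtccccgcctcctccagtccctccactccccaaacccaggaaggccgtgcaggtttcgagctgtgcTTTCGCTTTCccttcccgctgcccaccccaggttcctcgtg

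Ratios within an array set each inducible subunit against the constitutive subunit it replaces, so they do not depend on how the arrays were scaled. The log2 ratio of the Psmb8 to the Psmb5 signal was -3.27 and -3.37 on the bulge arrays, against -1.13 and -1.44 on the total arrays. That of Psmb9 to Psmb6 was -2.33 and -2.21 on the bulge arrays, against -0.25 and -0.30 on the total arrays. Both ratios were separated between the groups, by -2.03 and -1.99, and for Psmb9 the replicates lay closer together in the ratio than in the signal. The ratio of Psmb10 to Psmb7 was -4.82 and -3.20 on the bulge arrays, against -3.82 and -2.93 on the total arrays, and overlapped. With 2 arrays per group the smallest p of an exact two-sided permutation test is 0.333, which the separated ratios reached (0.444 adjusted over the 4 ratios computed). Signals of different probe sets are not on a common scale, so only the difference of a ratio between groups has a meaning, and it shows unequal change of the pair.

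The constitutive proteasome genes were measured on the same arrays. All 15 were measured and above background, their differences lay between -0.62 and 0.19 with a median of -0.09, and 12 had overlapping groups. The lowest p-values among them belonged to Psma1 at -0.62, Psme3 at -0.58, Psmb7 at -0.44, Psma3 at -0.35 and Psmb1 at -0.23, all but Psme3, an activator gene, encoding subunits of the core particle. Psmb5, the constitutive β5 subunit, had signals of 2435 and 3711 in bulge cells, against 2907 and 3822 in total epidermis. Psmb6, the constitutive β1 subunit, had signals of 1492 and 3323 in bulge cells, against 1552 and 2506 in total epidermis.

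**Figure D2:**
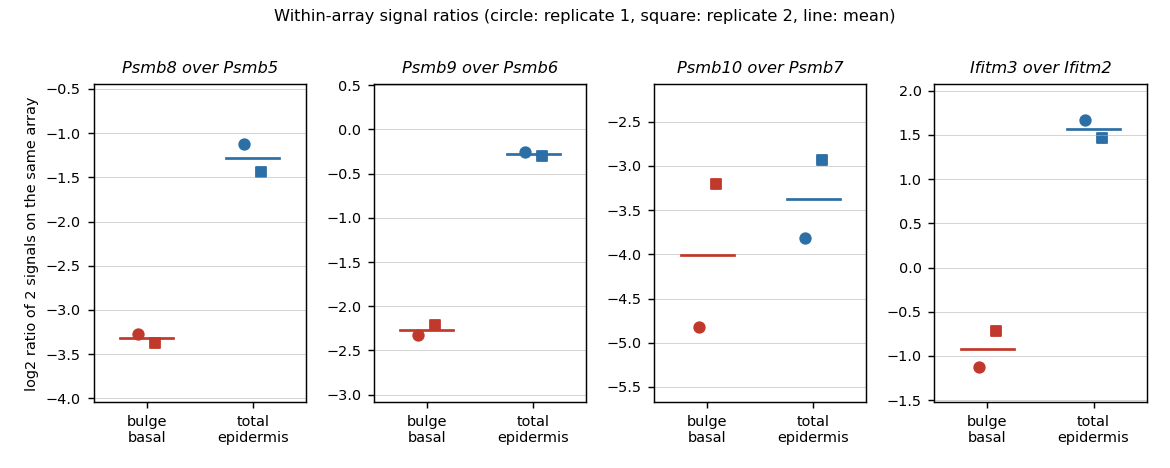
Log2 ratio of 2 probe set signals on the same array, 1 point per array and a line at the mean, with bulge basal arrays left of total epidermis arrays. The ratios Psmb8 to Psmb5, Psmb9 to Psmb6 and Ifitm3 to Ifitm2 are separated between groups by -2.03, -1.99 and -2.48, and Psmb10 to Psmb7 overlaps.

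Of the 5 GTPases induced by interferon gamma, which attack the vacuoles of intracellular pathogens, 4 were below background on both bulge arrays and 1 on both total arrays. Gbp2, a guanylate-binding protein, had signals of 103 and 33.5 on the bulge arrays, both below background, against 274 and 196 on the total arrays. The fitted difference was -1.97 ± 0.64 (SE, 95% interval -3.59 to -0.36) with an adjusted p of 0.35, and the bound was at least 1.54-fold lower. Irgm1, an immunity-related GTPase, had signals of 87.1 and 92.1 in bulge cells, against 246 and 202 in total epidermis, at least 1.49-fold lower with an adjusted p of 0.286. Ifi47, of the same family, had signals of 124 and 52.2 in bulge cells, against 224 and 159 in total epidermis, at least 1.26-fold lower with an adjusted p of 0.559. These 3 had groups without overlap and were below background on both bulge arrays. Igtp, a further member of the family, was not separated, with signals of 416 and 449 in bulge cells, against 493 and 221 in total epidermis. Gbp3 was below background on all arrays.

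The 7 transcription factors had a median difference of 0.03, both bulge arrays lay below in 3 and above in 0 (20.5% and 18% of all genes), and 3 of the 7 were above background. Irf1, which drives many class I and immunoproteasome genes, had signals of 544 and 419 in bulge cells, against 773 and 680 in total epidermis. The groups did not overlap, with a difference of -0.60 ± 0.39 (SE, 95% interval -1.58 to 0.38) and an adjusted p of 0.743. Irf9, the DNA-binding part of the type I interferon complex, had signals of 206 and 309 in bulge cells, against 316 and 332 in total epidermis, a difference of -0.36 with an adjusted p of 0.901. Irf3, the factor activated by viral sensors to induce interferon itself, overlapped at 659 and 1181 in bulge cells, against 893 and 779 in total epidermis. Stat2, Irf2, Irf7 and Irf8 were not above background on both arrays of any group, with differences from -0.70 to 0.26. Stat2, under background on all arrays, is 1 of the 3 with both bulge arrays below both total arrays. The window of Irf1, at chr11:53769764-53770063 on the plus strand, is shown with its GAS match, 90 bases before the start, in capitals.
Irf1: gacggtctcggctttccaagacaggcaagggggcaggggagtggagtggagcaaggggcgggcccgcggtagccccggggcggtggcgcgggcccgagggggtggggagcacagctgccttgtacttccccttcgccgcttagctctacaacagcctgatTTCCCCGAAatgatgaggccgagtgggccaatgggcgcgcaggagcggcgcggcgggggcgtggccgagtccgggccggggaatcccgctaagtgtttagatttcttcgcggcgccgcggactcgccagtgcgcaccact

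Antiviral effector genes made up the largest list, with 18 of 21 measured, and most were dim. Their median difference was 0.19, both bulge arrays lay below in 1 and above in 4 (20.5% and 18% of all genes), and 11 of the 18 were not above background on both arrays of any group. These 11 include classical targets of type I interferon: Ifit1, Ifit2 and Ifit3, which bind foreign RNA, Mx1 and Mx2, which block virus replication, Rsad2, Oasl1, Oasl2, Bst2, Eif2ak2 and Ifitm1. Their differences ran from -0.54 to 0.49 at signals near or under background. Mx2 and Rsad2, under background on all arrays, are 2 of the 4 with both bulge arrays above both total arrays.

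The measured members of the interferon-induced transmembrane family, whose proteins restrict virus entry at membranes, differed in direction between Ifitm3 and Ifitm2. Ifitm3 had signals of 1485 and 4122 on the bulge arrays, against 6404 and 9428 on the total arrays. The groups did not overlap, with a difference of -1.65 ± 0.61 (SE, 95% interval -3.19 to -0.11), 3.14-fold lower, and an adjusted p of 0.436. It was -0.91 without bulge replicate 1 and -2.39 without bulge replicate 2. Ifitm2 had signals of 3229 and 6786 in bulge cells, against 2017 and 3425 in total epidermis. Its groups overlapped, with a difference of 0.83 ± 0.55 (SE, 95% interval -0.55 to 2.22) and an adjusted p of 0.748. Within each array, the log2 ratio of Ifitm3 to Ifitm2 was -1.12 and -0.72 on the bulge arrays, against 1.67 and 1.46 on the total arrays, so the groups were separated by -2.48 (exact permutation p = 0.333, the smallest possible). The genes share sequence, and their probe sets may take up signal from each other. Both windows hold an ISRE match. The window of Ifitm3, at chr7:141010695-141010994 on the minus strand, holds ISRE matches beginning at bases 3 and 20 from the start and a GAS match at base 14 that overlaps the second of these. That of Ifitm2, at chr7:140955912-140956211 on the minus strand, holds 1 ISRE match 46 bases before the start. Matches are in capitals, and the windows are set together because the genes differ in direction.
Ifitm3: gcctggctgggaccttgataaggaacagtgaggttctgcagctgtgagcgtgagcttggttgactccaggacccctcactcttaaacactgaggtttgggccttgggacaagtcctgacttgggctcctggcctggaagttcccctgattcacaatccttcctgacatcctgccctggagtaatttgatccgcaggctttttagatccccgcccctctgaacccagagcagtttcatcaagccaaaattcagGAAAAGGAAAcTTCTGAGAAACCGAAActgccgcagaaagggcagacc
Ifitm2: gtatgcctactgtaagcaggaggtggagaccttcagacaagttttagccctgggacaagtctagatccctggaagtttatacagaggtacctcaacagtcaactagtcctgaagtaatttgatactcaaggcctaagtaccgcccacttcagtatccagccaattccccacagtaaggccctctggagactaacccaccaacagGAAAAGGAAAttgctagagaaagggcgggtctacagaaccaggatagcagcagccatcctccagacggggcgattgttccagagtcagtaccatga

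The other detected effectors had differences smaller in size than that of Ifitm3. Trim25, a ubiquitin ligase of the RIG-I pathway, had signals of 8422 and 6294 in bulge cells, against 5053 and 5266 in total epidermis, higher without overlap at 0.50, with an adjusted p of 0.811. A second Trim25 probe set gave 0.58 with overlapping groups. Isg20, an exonuclease, had signals of 152 and 154 in bulge cells, against 87 and 107 in total epidermis, where it was below background, so the bound was only at least 1.02-fold higher. Ifi35 overlapped at 223 and 476 in bulge cells, against 110 and 258 in total epidermis, a difference of 0.95 that was 0.34 without total epidermis replicate 1 and 1.57 without replicate 2. Ifih1, which encodes the RNA sensor MDA5, overlapped at 1116 and 554 in bulge cells, against 1052 and 966 in total epidermis, a difference of -0.36. Usp18, the protease that removes ISG15 and limits receptor signalling, overlapped at 210 and 498 in bulge cells, against 545 and 439 in total epidermis, a difference of -0.60. The genes of the chemokines CXCL9 and CXCL10, which attract T cells, were above background on replicate 1 of each group only. Cxcl9 had signals of 225 and 56.9 in bulge cells, against 204 and 67.3 in total epidermis. Cxcl10 had signals of 167 and 11.7 in bulge cells, against 176 and 80.5 in total epidermis, so both genes had overlapping groups.

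**Figure D3:**
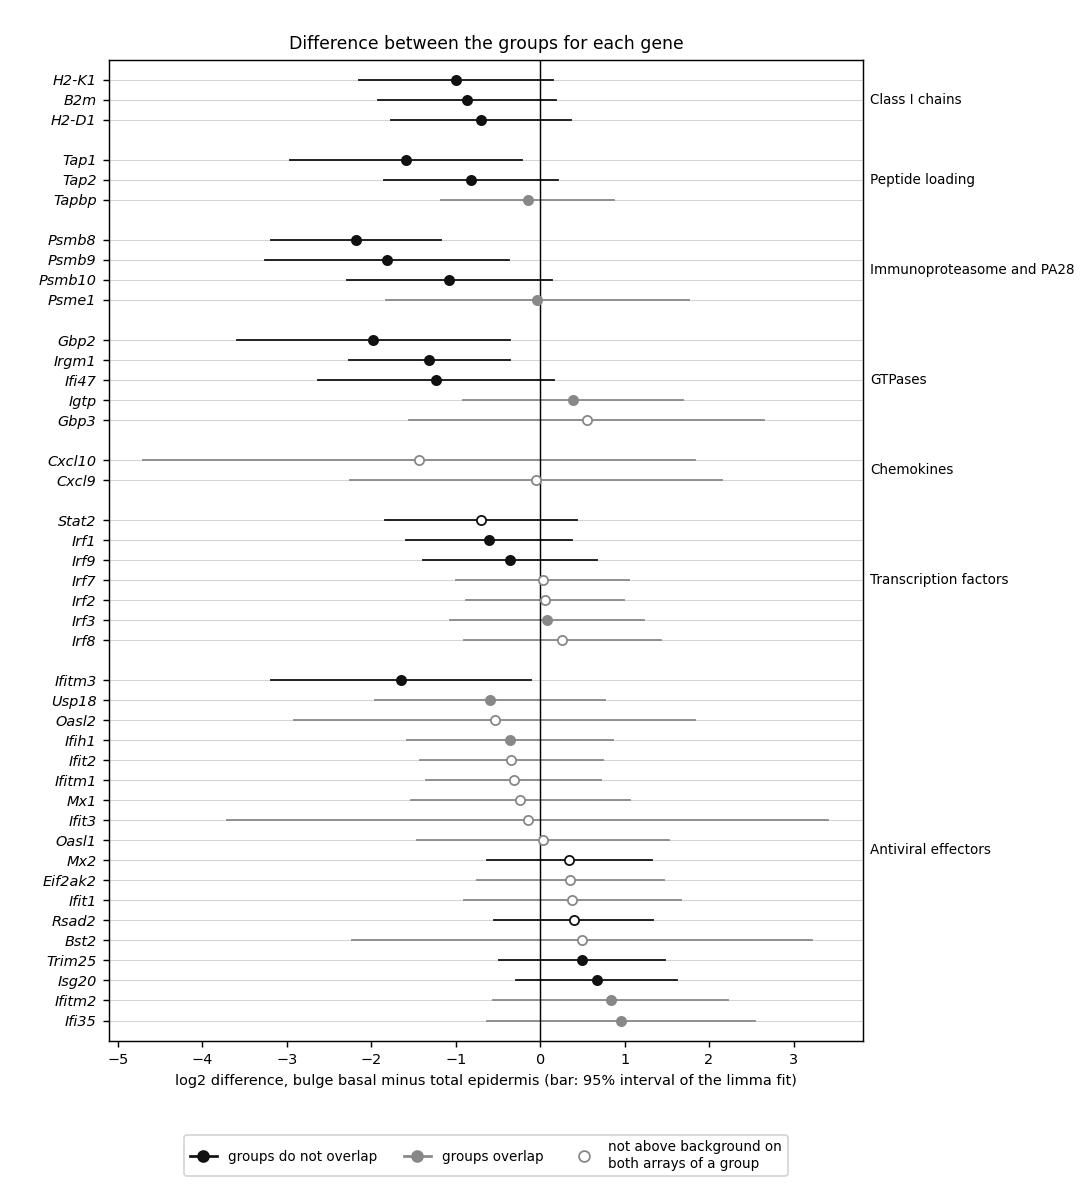
Log2 difference, bulge basal minus total epidermis, of the 42 measured members with 95% intervals of the limma fit, in black where the groups do not overlap and with open circles where a gene was not above background on both arrays of any group. Psmb8 lies lowest at -2.18, and the class I presentation genes all lie below 0, from -2.18 to -0.04 for Psme1.

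The motifs were searched on both strands in the RefSeq windows of 43 of the 47 listed genes, and Mx1, Mx2, Usp18 and Tap2 had no window in the table. The ISRE was read as TTTCNNTTTC and the GAS as TTCNNNGAA. The ISRE matched in 20 of 52 member windows, 38.5%, and in 3.44% of all 32851 windows, and the GAS in 21.2% of member windows and 8.3% of all. The 17 measured members with an ISRE match had a median difference of -0.04, with 5 below and 1 above without overlap. The 21 without a match had -0.34, with 9 below and 2 above (20.5% below and 18% above over all genes). Of the 17, only 8 were above background on both arrays of a group, and of the 21, 14 were. For the GAS the median was 0.26 over 11 members with a match, with 3 below and 1 above without overlap. It was -0.36 over 27 without a match, with 11 below and 2 above. Of the 11, only 6 were above background on both arrays of a group, and of the 27, 16 were. A match describes letters in a window and no more.

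Of 113 further genes of the pathway, listed by role, 85 were measured, with 0 called over all genes. Both bulge arrays lay below in 25 and above in 6 (20.5% and 18% of all genes, also for the lists that follow). Of the 85, 30 were not above background on both arrays of any group, among them 9 of the 25 and 2 of the 6. The median difference was -0.21, and 0 with values raised to background. Of the receptor chains, kinases and regulators, 14 were measured, with a median of -0.10, and 11 overlapped. Ifngr1, the ligand-binding chain of the interferon gamma receptor, had signals of 490 and 407 in bulge cells, against 1249 and 881 in total epidermis, a difference of -1.23 with an adjusted p of 0.361. Socs3, a feedback inhibitor of Janus kinases, had signals of 996 and 909 in bulge cells, against 2203 and 10022 in total epidermis, where the arrays were far apart, a difference of -2.30 with an adjusted p of 0.368. The kinases Jak1 and Jak2 had differences of -0.47 and 0.46, and the SUMO ligase gene Pias1 0.39. Viral sensors and adaptors had 8 measured with a median of 0.19, and those above background were Tlr3 at 0.35, Mavs at 0.11, Tbk1 at -0.36 and Myd88 at -0.41. Ligand genes had 7 measured, of which 1 was above background, the cytokine gene Il18, with signals of 101 and 716 in bulge cells, against 189 and 248 in total epidermis.

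A list of other interferon-induced genes had 26 measured, with a median of -0.75, 13 below and 2 above. Of the 26, 14 were not above background on both arrays of any group, among them 7 of the 13 and 1 of the 2. With values raised to background the median was 0. Oas1a, a synthetase of the messenger that activates RNase L, had signals of 39.8 and 35.1 on the bulge arrays, both below background, against 221 and 287 on the total arrays. It was at least 1.68-fold lower, with a limma adjusted p of 0.0912 over all genes, 0.0534 with a variance trend and 0.0207 with dim genes left out, a filter it passed through the total group alone. With 1 array left out, its fitted difference lay between -2.94 and -2.57. Parp14, an ADP-ribosyltransferase gene, had signals of 537 and 275 in bulge cells, against 1168 and 774 in total epidermis, a difference of -1.30 with an adjusted p of 0.472. Its relative Parp9 had a difference of -0.74, and Lgals9, a galectin gene below background on both bulge arrays, was at least 1.21-fold lower. Tor3a was higher, with signals of 227 and 399 in bulge cells, against 141 and 129 in total epidermis, where it was below background.

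Other class I and loading genes had 15 measured, with a median of -0.36, 6 below and 1 above. Of the 15, 5 were not above background on both arrays of any group, among them 1 of the 6. With values raised to background the median was -0.0084. H2-M3, a non-classical class I gene that presents formylated peptides, had signals of 486 and 434 in bulge cells, against 1238 and 1149 in total epidermis. It was 2.60-fold lower with an adjusted p of 0.252. Canx, the calnexin chaperone of new heavy chains, had signals of 6232 and 4402 in bulge cells, against 7989 and 8194 in total epidermis, a difference of -0.63. Erap1, which trims peptides for class I, had signals of 144 and 108 in bulge cells, both below background, against 277 and 214 in total epidermis. It was at least 1.62-fold lower. Hfe, a class I-like regulator of iron uptake, had signals of 104, below background, and 180 in bulge cells, against 296 and 363 in total epidermis. The 1 above was Fcgrt, a class I-like receptor that carries IgG and presents no peptide, with signals of 379 and 498 in bulge cells, against 153 and 181 in total epidermis. It was 2.61-fold higher with an adjusted p of 0.279.

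**Figure D4:**
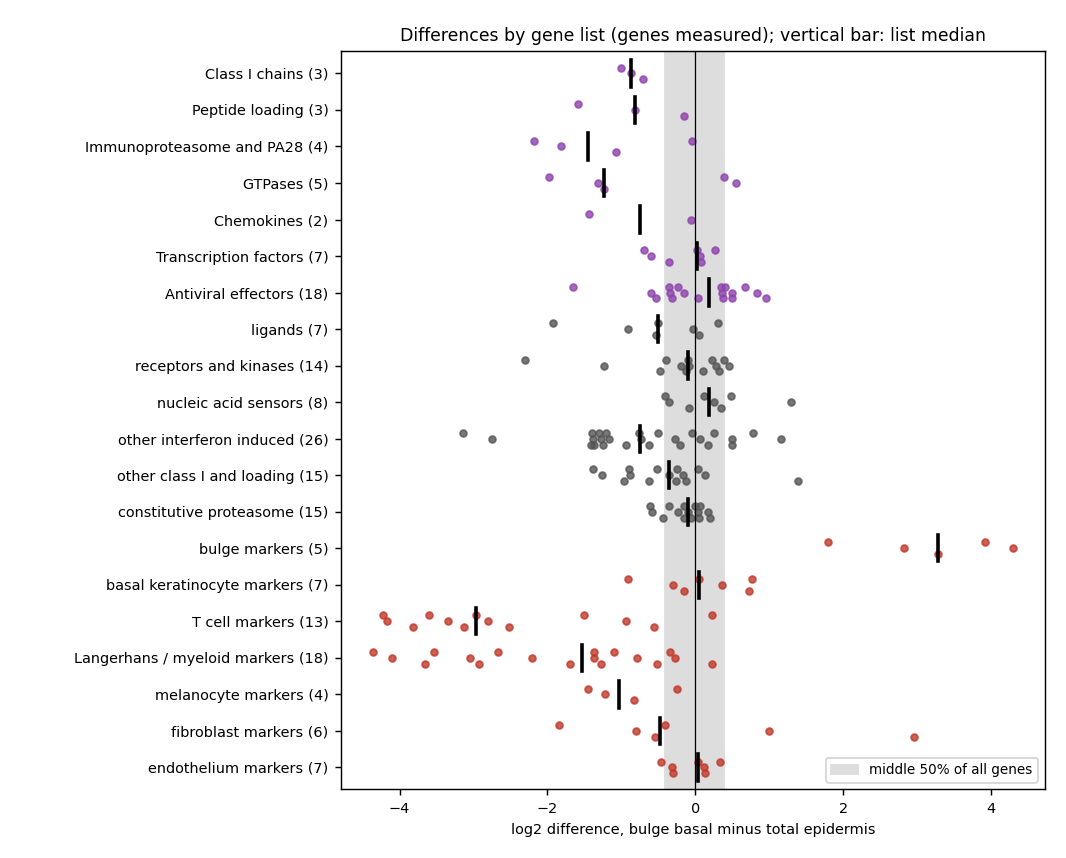
Log2 difference, bulge basal minus total epidermis, of each measured gene by list, 1 point per gene, with a bar at the list's median and the middle 50% of all genes shaded. Besides the lists of the members, those of other pathway genes and of cell type markers are drawn. The immunoproteasome and PA28 list has its median at -1.45 and the constitutive proteasome list at -0.09.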

How the data were processed

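RNA of 4 samples, 2 per group, was measured on Affymetrix arrays; amplification and biotin labelling started from 200 ng, per the labels' protocols. The authors deposited a table of linear intensity per probe set, whose mean after trimming 2% at each end is 500.0 on every array. GCOS, RMA, affy 1.36 and R 2.15.1 are named in the submitters' processing notes, and which of them made the values is not given in the sources used here. Log2 was taken of the deposited values. Of 22690 probe sets, 20380 had 1 symbol in the platform annotation, 691 several and 1555 none, and 64 were controls. The 12393 genes were tested in R 4.3.3 with limma 3.58.1 (functions lmFit, eBayes; two-sided; group as the only term; Benjamini-Hochberg adjustment over all genes). The script was tested on simulated data. The files give no counts, and the number of arrays limits the precision.

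All listed members are named. Of each other pathway list, up to 5 genes above background with the smallest unadjusted p are named, and Psmb5 and Psmb6 were added as the partners of Psmb8 and Psmb9. Windows were taken for the brightest member of each role with a match, limited to the 4 brightest of these, and those of Ifitm2, Psmb8 and Tap1 were chosen after values were seen. The members and lists were chosen with earlier results of these data known, among them a lower median over a shorter interferon list, which is no independent support. Alternatives were a variance trend, robust moderation, median centring, quantile normalization, a filter on dim genes (group means below background), other probe set rules, an added 32, values raised to background, a replicate block and each array left out. The filter combined with a variance trend or with an array left out was added after seeing the data. In these the genes kept were still chosen on all 4 arrays.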

Additional observations from a re-analysis of the deposited data

How the results depend on the processing

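For the 24 members above background, 533 of 576 values recomputed under 24 settings kept direction and side of the threshold, 19 also passed it, and 24 changed sign, all in 6 members and with an array left out. The changed values were -0.34 (without bulge replicate 2) and -0.018 (without total replicate 2) for Irf3, 0.15 (without bulge replicate 2) for Ifih1, 0.026 (without bulge replicate 1) for Usp18, -0.19 (without total replicate 2) for Igtp, 0.90 (without bulge replicate 1) and 0.26 (without total replicate 2) for Psme1, and 0.093 (without bulge replicate 1) for Tapbp. With 1 array left out these ranged up to 0.50 for Irf3 and 0.97 for Igtp, and down to -0.86 for Ifih1, -1.22 for Usp18, -0.97 for Psme1 and -0.39 for Tapbp. The difference moved by over 1.5-fold for 7 members, Psme1, Usp18, Psmb9, Ifitm3 and Ifi35 among them, and ran from -2.79 to -1.16 for Gbp2 and -1.86 to -0.61 for Ifi47. Genes called higher and lower numbered 69 and 65 with a variance trend, 104 and 118 with the filter, 98 and 104 with both, 18 and 19 with 32 added and 1 and 4 with values raised to background. With the trend they numbered 171 and 217 without bulge replicate 1, 153 and 197 without bulge replicate 2, and 0 without either total array. With the filter they numbered 369 and 374, 309 and 313 without those bulge arrays, and 101 and 105, 118 and 113 without total replicates 1 and 2. Members called lower numbered 1 with the filter and with filter and trend, 2 and 3 with the trend and 3 and 4 with the filter without bulge replicates 1 and 2, and 0 without either total array, and 0 were called higher. Members with both bulge arrays above numbered 2 with the filter, with filter and trend, with all probe sets averaged and with values raised to background. With 1 array left out, members without overlap and higher in bulge numbered 6 to 14 (9 without either bulge array), or 3 to 6 with the filter as well. Those lower numbered 17 to 26, or 15 to 18 with the filter. There 1 array is set against 2, which separates more easily, so these counts do not compare with those of all 4 arrays. The share over all genes is not given for them. The members' median was -0.65 with the filter (with or without trend), -0.0041 with values raised to background, and with 1 array left out ranged from -0.60 to -0.17. With the filter it was -0.83 without bulge replicate 1, -0.57 without bulge replicate 2, -0.64 without total replicate 1 and -0.72 without total replicate 2. The class I median stayed between -1.10 and -0.78 with 1 array left out, with 8 to 10 of 10 genes lower. The labels do not say that replicate numbers pair the arrays. Deviations of same-numbered arrays correlated at 0.295 over all genes and 0.627 over the 5780 above background throughout. A replicate block called 0 genes alone and 467 higher and 450 lower with a variance trend, 5 of them members, all lower (Psmb8, Psmb9, Tap1, Ifitm3 and Gbp2). Replicate differences had an SD of 1.05 in bulge and 0.839 in total arrays over all genes, and 0.867 and 0.494 over those 5780. The cause of these shifts was not tested.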
